A study of Drosophila melanogaster with 12 samples.

Results

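The comparison described here is that of aged with young oenocytes of flies kept on water, H2O-Aged against H2O-Young. Its members are the loci with an FPKM (fragments per length of transcript and per number of fragments mapped, an expression level) of at least 1 in one or both of these groups. They number 9676 of the 16191 loci in the table of all 4 groups. The level in H2O-Aged over that in H2O-Young was computed for the 9502 of them that were above 0 in both groups.

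Oenocytes are secretory cells under the abdominal cuticle of insects. They make the very long-chain hydrocarbons that waterproof the cuticle and serve as pheromones, by extending fatty acids in the endoplasmic reticulum and then reducing and decarbonylating them. They also store and turn over lipid and carry many detoxifying enzymes, and for these reasons they are often likened to the hepatocytes of the mammalian liver.

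All flies were females that carried PromE-Gal4, an oenocyte driver, and UAS-RpL13A-FLAG, a ribosomal protein of the large subunit with a FLAG tag, so that RNA on tagged ribosomes could be pulled down from whole-fly lysate. H2O-Young flies were 14 days old and H2O-Aged flies 28 days old by the sample labels (the study's text gives other ages), and both received water on the food for 24 h. PQ-Young and PQ-Aged were flies of the same genotype and ages that received 10 mM paraquat, a herbicide that generates superoxide, in place of water. Each group had 3 biological replicates of 200 females, with RNA from the pooled animals, and an equal amount of RNA went into each library. The study reports that less RNA was pulled down from aged than from young samples. The ratios therefore compare equal amounts of RNA and not yields per fly. The driver is also active in testis, which females lack, and a ribosome pull-down from whole flies can carry RNA of other tissues. The table gives 1 pooled FPKM for the 3 libraries of a group. No spread between libraries, depth of a library, SD or test could therefore be computed, the p-values in the deposited table were not used, and in the text "young" and "aged" beside an FPKM stand for H2O-Young and H2O-Aged unless paraquat is named. "Called" below means at least a 2-fold difference between 2 group values. By the study's own description a library of H2O-Young stood apart from the others of its group, and the pooled values do not allow a result without it.

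Of the 9502 loci with a ratio, 1302 were at least 2-fold higher in H2O-Aged (13.7%) and 2313 at least 2-fold lower (24.3%), so that 64.0% of the called loci were lower. The median log2 ratio of all loci was -0.13, and the middle 50% of loci lay between -0.97 and 0.60. At least 4-fold differences numbered 211 higher and 740 lower, and at least 8-fold differences 74 and 238. Just outside and just inside the 2-fold line lay 385 loci that were 1.8 to 2 times higher and 253 that were 2 to 2.2 times higher, and 383 and 308 in the same bands of lower loci. Just inside the limit on expression, 242 loci had an FPKM of 1 to 1.2 in the higher group, and 318 loci with 0.8 to 1 fell outside it.

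The split depended on how the groups were scaled. The summed FPKM was 1692800 in H2O-Young and 770190 in H2O-Aged. Scaling both groups to the same sum added 1.14 to each log2 ratio, which gave 4783 loci higher and 619 lower (11.5% of the called loci lower). Scaling to Gapdh1, a glycolytic enzyme gene often used as a reference, gave 2292 higher and 1531 lower (40.0% lower), and quantile normalization gave 1512 and 1727 (53.3% lower). The medians of gene lists are therefore given as their difference from the median of all loci, which a common factor does not move. A single gene that was lower by 1.14 or less on the log2 scale turns to the higher side when the summed FPKM is made equal. Counts and statements of within 2-fold below are of the deposited values unless a scaling is named.

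The labelled cell type was checked against its markers. Of 12 oenocyte markers, 9 had a ratio, and all of them had an FPKM of at least 1 in both groups. Their summed FPKM was 40891 (young) and 6279 (aged), and 8 of the 9 were at least 2-fold lower. Cyp4g1, the oenocyte P450 that completes hydrocarbon synthesis, was marked as holding too many fragments to compute and is listed at 0 in all 4 groups, which is no measurement. Markers of other tissues were present as well. The 17 follicle cell and eggshell markers summed to 17141 and 2146, with 17 of 17 lower. The fat body markers summed to 21484 and 2152 (6 of 7 lower), nearly all of it from the yolk protein genes Yp1, Yp2 and Yp3, which follicle cells also express. The larval serum protein gene Lsp1beta, also of fat body, had 17.4 in young and 1.26 in aged flies. The midgut markers summed to 12551 and 2842 (14 of 15 lower). The germline markers summed to 666 and 1044, with 6 of 15 higher and 0 lower, and the muscle markers to 381 and 658, with 3 of 11 higher and 0 lower. Most of the difference in the muscle sum came from Act57B, at 62.6 (young) and 325 (aged), in a locus shared with a small nucleolar RNA. The muscle marker with the highest FPKM in H2O-Young, up, had 161 (young) and 84.8 (aged), within 2-fold. Neuronal markers were near the limit of expression, with sums of 36.4 and 17.8 over 10 genes. In such bulk RNA, fewer cells of a type, less RNA per cell and a different share of a tissue in the pull-down cannot be told apart. RpL13A, the gene of the tagged protein, had an FPKM of 8001 (young) and 3849 (aged), lower as deposited but not after scaling to the summed FPKM or quantile normalization. The table gives 1 value for the tagged and the endogenous copy of this gene together.

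The 15 loci with the highest ratios and the 15 with the lowest, taken from single-gene loci whose higher group reached an FPKM of 10, are drawn in the plot of the most different loci. Several on the higher side encode proteins of known type. Nep2, a secreted neprilysin-like peptidase, had an FPKM of 5.47 in young and 104.3 in aged flies, 19.1-fold higher. Dnaaf3, a factor for the assembly of axonemal dynein arms, had 9.67 (young) and 134 (aged), 13.9-fold higher. HP6, a protein related to heterochromatin protein 1, had 0.648 in young and 10.9 in aged flies (16.8-fold higher). Its H2O-Young value, like those of CG8568 (0.576) and CG14810 (0.778) among the 15, was below an FPKM of 1. CG13840 had 6.12 (young) and 107 (aged), 17.5-fold higher, and CG11898 had 1.89 in young and 28.4 in aged flies; the sources used here describe no function of either. The largest ratio belonged to the long noncoding RNA lncRNA:CR44060, whose H2O-Young value of 0.0512 is far below an FPKM of 1, so that its ratio rests on a level at which few fragments can have been counted. On the lower side, Cyp4e1, a cytochrome P450, had an FPKM of 85.1 (young) and 2.91 (aged), 29.2-fold lower. CG15358 had 783 in young and 30.6 in aged flies (25.6-fold lower), and CG8661 had 42.3 (young) and 1.59 (aged), 26.7-fold lower. The ratio of PQ-Aged to PQ-Young had the same sign at all 30 loci but CG33946, with 6.66 in PQ-Young and 6.70 in PQ-Aged, and mir-2b-2, which was listed at 0 in PQ-Aged.

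**Figure D1:**
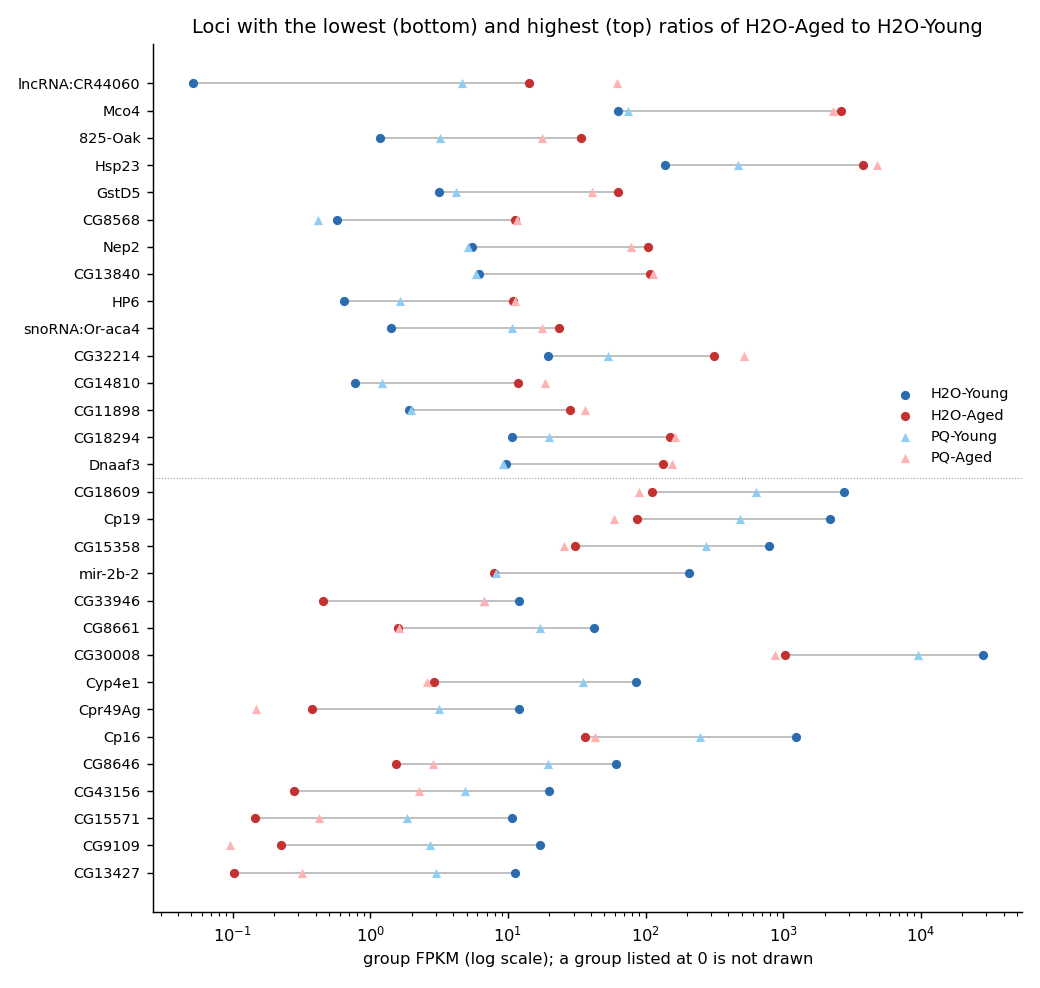
Group FPKM, on a log scale, of the 15 loci with the highest (upper part) and the 15 with the lowest (lower part) ratio of H2O-Aged to H2O-Young; circles are the water groups and triangles the paraquat groups, and each point is the authors' pooled value of 3 libraries, with no error. Mco4 lies at 62.9 and 2635 and CG30008 at 28309 and 1035 in H2O-Young and H2O-Aged.

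Gene lists were read against the 24.3% of all loci that were lower and the 13.7% that were higher. The plot of gene lists shows those with the lowest and the highest medians. Lists at the low end were of digestive, eggshell, cuticle and hydrocarbon genes, and lists at the high end were of dosage compensation, small RNA, germline, mitotic and DNA replication genes. The share of short transcripts differed between these ends, as given below for transcript length.

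**Figure D2:**
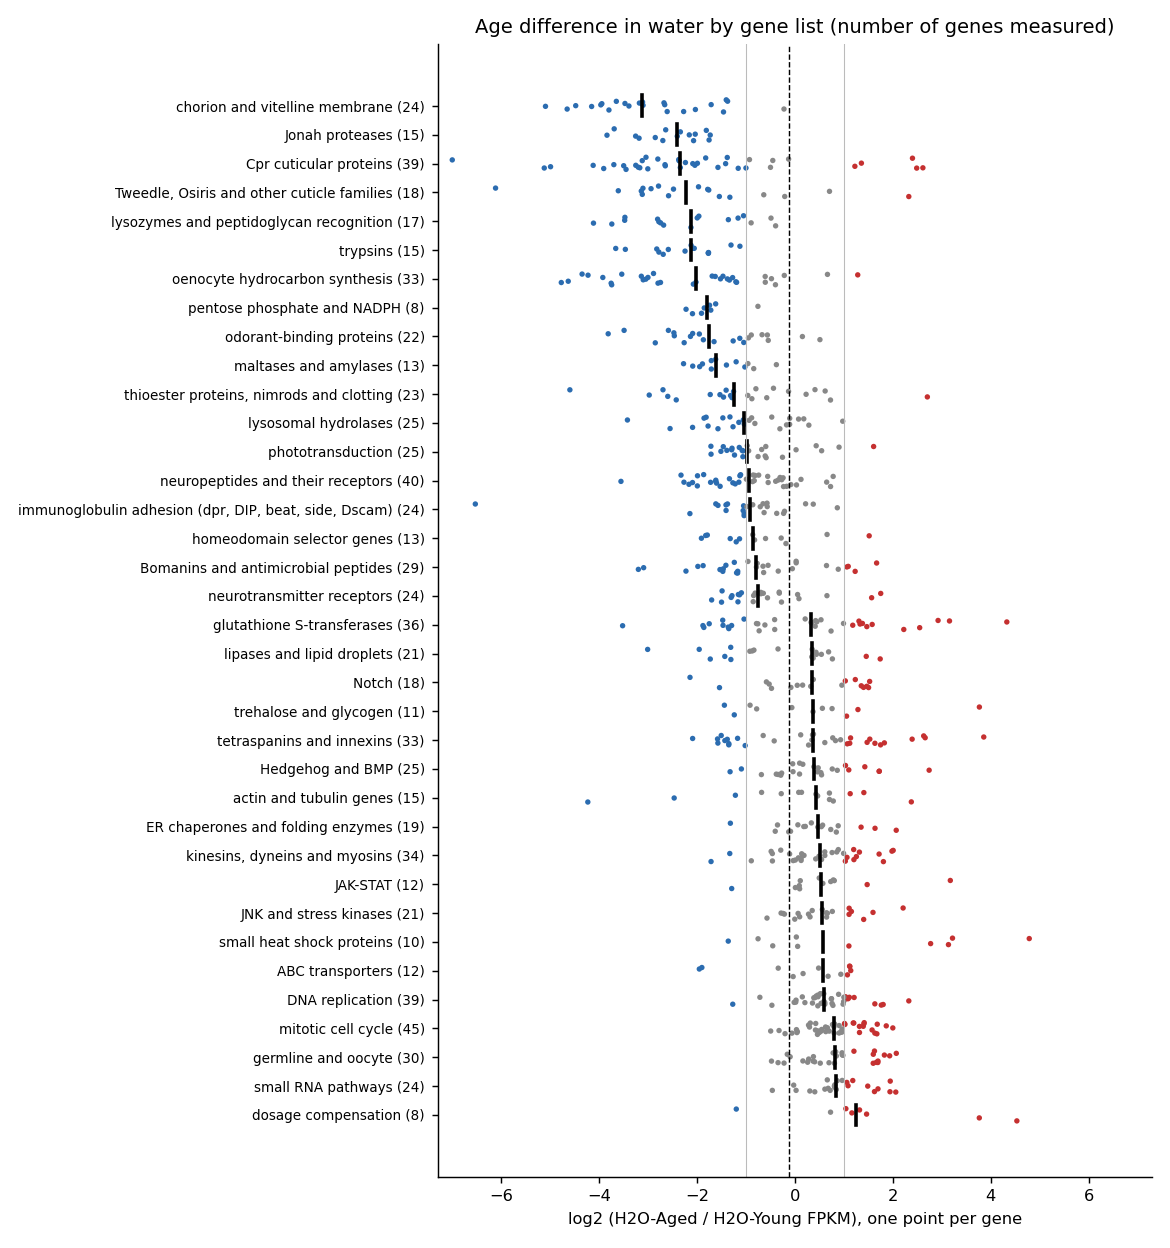
Log2 ratio of the FPKM in H2O-Aged to that in H2O-Young for the genes of 36 lists with at least 8 measured genes, the 18 with the lowest and the 18 with the highest medians; each point is a gene (red at least 2-fold higher, blue at least 2-fold lower, a value below -7 drawn at -7), black bars are medians, and the dashed line is the median of all loci, at -0.13. All 15 Jonah protease genes lie left of the 2-fold line, and none of the 45 mitotic genes does.

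Genes of hydrocarbon synthesis, the best known task of oenocytes, were lower at nearly every measured step. The last step is not covered, since its P450 gene Cyp4g1 has no measurement. Of 33 measured genes of the list, 26 were at least 2-fold lower and 1 higher, and the list's median lay -1.89 from that of all loci. After scaling to the summed FPKM 15 were lower and 2 higher. Among the elongases, which add carbon units to fatty acids, CG30008 had an FPKM of 28309 in young and 1035 in aged flies, 27.3-fold lower. The elongase gene CG9458 had 20395 (young) and 1001 (aged), 20.4-fold lower. eloF, an elongase needed for the long-chain dienes of females, had 7317 in young and 629.8 in aged flies (11.6-fold lower). The other enzymes of the elongation cycle were lower too. Hacd1, a 3-hydroxyacyl-CoA dehydratase, had 12425 (young) and 927 (aged), 13.4-fold lower, and spidey, the ketoacyl-CoA reductase, had 8060.2 in young and 1159 in aged flies (6.96-fold lower). Among the desaturases, which place double bonds, Fad2, the female-specific enzyme, had 15747 (young) and 2125 (aged), 7.41-fold lower, and CG15531 had 16827 in young and 1108 in aged flies (15.2-fold lower). FASN3, an oenocyte fatty acid synthase, had 694 (young) and 37.0 (aged), 18.7-fold lower, and FarO, a fatty acyl-CoA reductase, had 3044 in young and 379.6 in aged flies (8.02-fold lower). FASN1, the fatty acid synthase of most lipogenic tissues, had 53.6 (young) and 35.2 (aged), within 2-fold. The widely expressed elongase gene Baldspot, at 39.6 in young and 28.4 in aged flies, and the elongase gene CG31523, at 1077 (young) and 816 (aged), were also within 2-fold. The desaturase gene CG9747 was the 1 member on the higher side, at 4.48 in young and 10.9 in aged flies (2.43-fold higher).

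Enzymes of the pentose phosphate pathway and others that supply NADPH, the reductant for fatty acid synthesis and elongation, were lower in 7 of 8 measured genes, with a median -1.67 from that of all loci. Taldo, the transaldolase of the pentose phosphate pathway, had an FPKM of 3808 (young) and 814 (aged), 4.68-fold lower. Rpi, ribose-5-phosphate isomerase, had 1384 in young and 324 in aged flies (4.27-fold lower). Zw, glucose-6-phosphate dehydrogenase and the entry step of the pathway, had 189 (young) and 61.6 (aged), 3.07-fold lower. Outside the pathway, Idh, the NADP-dependent isocitrate dehydrogenase, had 2164 in young and 599 in aged flies, and Men, the malic enzyme, had 576 (young) and 172 (aged). Pgd, the other dehydrogenase of the oxidative branch, had 429 in young and 254 in aged flies, within 2-fold. Under quantile normalization 2 of the 8 were lower by 2-fold or more, and after scaling to the summed FPKM 1 was. Of 13 glycolytic genes 3 were lower and none higher, among them Hex-C, a hexokinase, at 32.3 (young) and 9.66 (aged).

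Lipid storage and carbohydrate storage genes were mixed. Of 21 genes of lipases and lipid droplets 6 were lower and 2 higher, against 1 and 11 after scaling to the summed FPKM. The perilipin gene Lsd-2, whose protein coats lipid droplets, had an FPKM of 907 in young and 366 in aged flies (2.48-fold lower). The lipophorin receptor genes LpR1, at 78.3 (young) and 20.2 (aged), and LpR2, at 46.0 in young and 18.5 in aged flies, and apolpp, the apolipoprotein of the circulating lipid carrier, at 24.8 (young) and 9.17 (aged), were lower as well. The diacylglycerol acyltransferase genes, which make the final bond of triglyceride, lay on the other side. Dgat2 had 2.69 in young and 8.99 in aged flies (3.34-fold higher) and mdy 3.40 (young) and 9.32 (aged), 2.74-fold higher. Jabba, another droplet coat protein, had 477 in young and 809.8 in aged flies, within 2-fold. Tps1, the enzyme of trehalose synthesis, had 339.6 (young) and 125 (aged), 2.72-fold lower, and Tret1-2, a trehalose transporter homolog, had 0.176 in young and 2.40 in aged flies. Gnmt, glycine N-methyltransferase, which uses up S-adenosylmethionine, had 348 (young) and 39.0 (aged), 8.92-fold lower, and Sam-S, which makes that compound, had 25.3 in young and 60.2 in aged flies (2.38-fold higher).

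Among cytochrome P450 genes 23 of 66 were lower and 9 higher, the former at 34.8% and the latter at 13.6% of the list. After scaling to the summed FPKM 5 of the 66 genes were lower and 27 higher. The largest ratio among them was that of sad (chromosome 3R, 11877235 to 11879754, dm6), the P450 of ecdysone synthesis that hydroxylates carbon 2 of the steroid, with an FPKM of 68.8 (young) and 896 (aged) on water and 157 (young) and 806 (aged) on paraquat. Both aged groups lay above both young groups, and in water the level was 13.03-fold higher. Of the other ecdysone P450 genes, shd, which forms the active hormone, and spo and spok, which act earlier in the pathway, were below an FPKM of 1 in both water groups, and dib had 2.19 (young) and 3.81 (aged), within 2-fold. phtm (Cyp306a1), which hydroxylates the steroid before dib does, had 199 in young and 95.2 in aged flies (2.09-fold lower as deposited, on the higher side after scaling to the summed FPKM). Cyp4p2 had 13.6 (young) and 128 (aged), 9.45-fold higher, and its relative Cyp4p1 2.97 in young and 17.2 in aged flies (5.79-fold higher). Cyp12e1, by contrast, had 46.3 (young) and 5.43 (aged), 8.53-fold lower, and Cyp4d20 119.6 in young and 21.04 in aged flies (5.68-fold lower). Among 16 nuclear receptors and ecdysone response genes, ERR, the estrogen-related receptor and a regulator of carbohydrate metabolism, had 506 (young) and 125 (aged), 4.05-fold lower. Hr39 had 4.11 in young and 10.7 in aged flies (2.60-fold higher). EcR, the ecdysone receptor, had 8.66 (young) and 7.81 (aged), within 2-fold, and Hnf4, which drives fatty acid oxidation and oenocyte elongase genes, had 112 in young and 63.2 in aged flies, also within 2-fold.

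Genes of insulin and TOR signaling numbered 28, of which 6 were higher and 3 lower. ImpL2, a secreted protein that binds insulin-like peptides, was one of the abundant transcripts of both groups, with an FPKM of 4376 (young) and 1856 (aged), 2.36-fold lower. chico, the insulin receptor substrate, had 0.835 in young and 2.99 in aged flies (3.58-fold higher). The receptor InR had 11.98 (young) and 12.2 (aged). Mitf, the regulator of lysosomal genes, had 2.15 in young and 8.35 in aged flies (3.89-fold higher), and scyl, which inhibits TOR, had 9.34 (young) and 34.9 (aged), 3.73-fold higher. chico, which promotes signaling, and scyl, which opposes it, were therefore on the same side. Autophagy genes were within 2-fold in 17 of 20 cases, and 3 were higher, among them Atg7, at 2.33 in young and 6.539 in aged flies, and Atg18b, at 1.07 (young) and 3.25 (aged).

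Heat shock genes separated into some with very large differences and others with none. Small heat shock proteins are chaperones that hold unfolding proteins in solution. The cluster of their genes on 3L (9371511 to 9385694, dm6) held 7 measured loci, 6 of them protein-coding. The 5 loci that were higher included the antisense RNA asRNA:CR43481. Hsp26 had an FPKM of 599.6 (young) and 5573 (aged) on water and 1406 (young) and 4341 (aged) on paraquat, which placed it among the most abundant transcripts of H2O-Aged, and was 9.29-fold higher in water. Hsp67Bc had 0.895 in young and 7.85 in aged flies (8.78-fold higher), and Hsp67Ba 1.53 (young) and 10.4 (aged), 6.82-fold higher. Hsp27, next to Hsp23, had 521 in young and 540.5 in aged flies, and CG4461, beside Hsp26, had 64.8 (young) and 47.2 (aged). Neighbouring genes of 1 family thus ranged from near equal levels to the ratio of Hsp23, at 138 in young and 3803 in aged flies. asRNA:CR43481 overlaps Hsp67Ba, and whether strand was used in the counting is not given in the sources used here, so that these values cannot be fully separated. Hsp22 shares 1 value with CG4456 and is not given here.

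The inducible members of the Hsp70 family were higher from a low level. Hsp68 had an FPKM of 24.3 (young) and 136 (aged), 5.60-fold higher and Hsp70Bc 1.07 in young and 11.6 in aged flies (10.8-fold higher), while the near-identical copies of Hsp70 can share reads, so that the value of a single copy is uncertain. Hsc70-2, a related gene, had 20.0 (young) and 5.57 (aged), 3.59-fold lower. The constitutive Hsc70-4 had 864 in young and 1384 in aged flies and Hsp83, the fly Hsp90, had 405 (young) and 669.9 (aged), both within 2-fold. All 8 subunits of the CCT chaperonin, which folds actin and tubulin, were within 2-fold, from -0.06 for CCT4 to 0.41 for CCT1 on the log2 scale, but scaling to the summed FPKM put all 8 at least 2-fold higher. In the endoplasmic reticulum, Hsc70-3, the fly BiP, had 168 in young and 522 in aged flies (3.10-fold higher). Ire1, a sensor of unfolded proteins there, had 2.45 (young) and 10.3 (aged), 4.19-fold higher, and Sil1, the exchange factor of BiP, had 11.5 in young and 29.2 in aged flies (2.55-fold higher). Xbp1, the target of Ire1, had 102 (young) and 129 (aged), and the chaperone Calr 916 in young and 1060.5 in aged flies, both within 2-fold. Of 19 genes of that list 3 were higher and 1 lower.

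A run of short genes around CG32214 on 3L (19466567 to 19476423, dm6) was higher throughout. It spans 9857 bases and holds 7 loci, 6 of them protein-coding, and all 7 were at least 5.98-fold higher in H2O-Aged. From left to right, CG14096 had an FPKM of 7.14 (young) and 86.5 (aged) on water and 15.5 (young) and 109 (aged) on paraquat. CG32214 had 19.5 (young) and 314 (aged) on water and 52.9 (young) and 516 (aged) on paraquat. In both of these both aged groups lay above both young groups. CG12519 had 29.9 (young) and 179 (aged) on water and 28.2 (young) and 212 (aged) on paraquat, CG18294 had 10.6 (young) and 152 (aged) on water and 19.9 (young) and 162 (aged) on paraquat, and CG32213 had 9.30 (young) and 82.4 (aged) on water and 12.8 (young) and 60.6 (aged) on paraquat, again with both aged groups above both young groups. asRNA:CR46047 overlaps CG18294, and the strand used in counting is not given. CG14095, the next member on the left, had 3.45 (young) and 0.351 (aged), 9.84-fold lower, and CG32212, the next on the right, had 2.77 in young and 4.59 in aged flies, within 2-fold. The stretch was singled out after its values were seen.

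**Figure D3:**
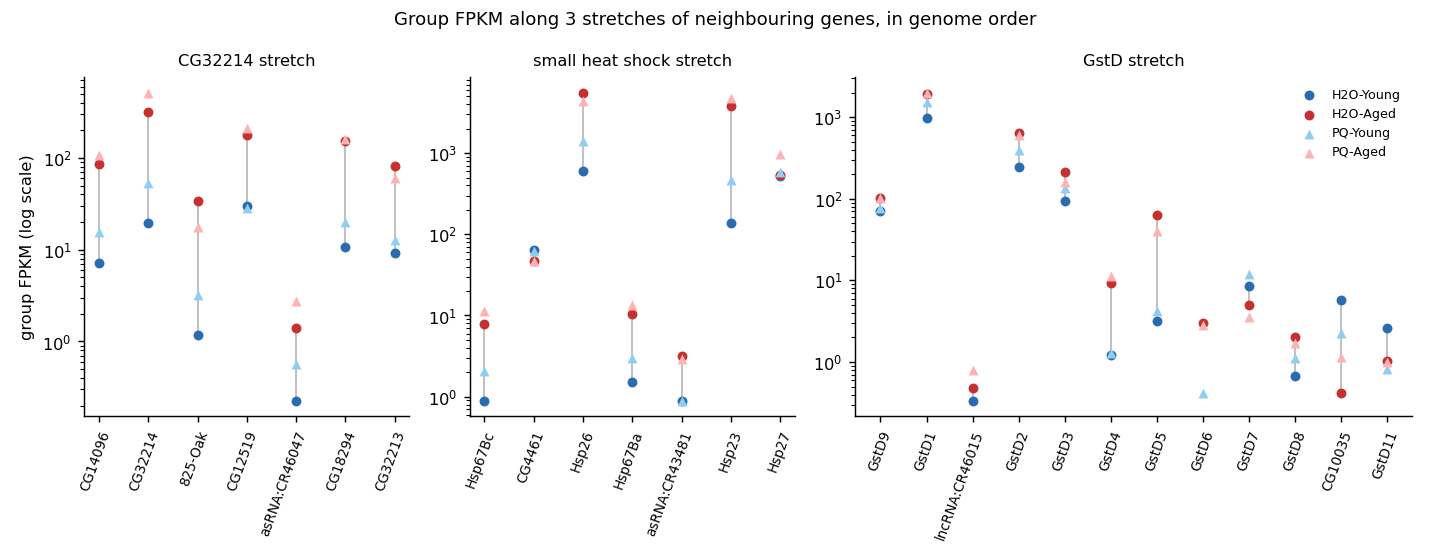
Group FPKM, on a log scale, of the loci in 3 stretches of neighbouring genes, in genome order; circles are the water groups, triangles the paraquat groups, grey lines join H2O-Young to H2O-Aged, and each point is a pooled value with no error. In the CG32214 stretch all 7 loci are higher in H2O-Aged, whereas Hsp27 (521 and 540) and GstD7 (8.44 and 4.98) lie in stretches where neighbours are higher.

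Glutathione S-transferases, which attach glutathione to reactive compounds, were spread to both sides as deposited, with 11 of 36 higher (30.6%) and 10 lower (27.8%). After scaling to the summed FPKM of all loci 20 of these genes were higher and 1 lower. Their summed FPKM was 37842 (young) and 10585 (aged), most of the young sum from Mgstl, the microsomal enzyme. Mgstl had 30828 (young) and 2685 (aged) on water, 11.5-fold lower, and 15690 (young) and 1988 (aged) on paraquat. The GstD cluster on 3R (12366163 to 12385624, dm6) held 5 of the 11 higher genes, and 2 loci that were lower, GstD11 at 2.61 (young) and 1.02 (aged), 2.55-fold lower and CG10035 at 5.83 in young and 0.419 in aged flies (13.9-fold lower). GstD5 had an FPKM of 3.15 (young) and 63.1 (aged), 20.1-fold higher, GstD4 1.22 in young and 9.25 in aged flies (7.58-fold higher) and GstD2 249 (young) and 646 (aged), 2.60-fold higher. GstD10, just before it on the chromosome, had 9.05 in young and 80.6 in aged flies (8.91-fold higher). GstD6 was listed at 0 in H2O-Young and at 2.97 in H2O-Aged, so that no ratio is given. GstD1, the most abundant of the cluster, had 981 (young) and 1948 (aged), just within 2-fold, and GstD7 had 8.44 in young and 4.98 in aged flies. Of the GstE and GstT genes that were called, 7 were lower and 3 higher. GstE12 had 504 (young) and 139 (aged), 3.63-fold lower, and GstT3 420.2 in young and 171 in aged flies (2.45-fold lower), whereas GstE7 had 11.5 (young) and 67.1 (aged), 5.84-fold higher. Reads of GstD genes that are alike in sequence could be split among them. In metal handling 6 of 32 genes were higher and 5 lower. Mco4, a multicopper oxidase, had an FPKM of 62.9 in young and 2635 in aged flies (41.9-fold higher). Irp-1B, an iron regulatory protein, had 1936 (young) and 375 (aged), 5.16-fold lower and Ctr1B, a copper importer, 50.9 in young and 9.90 in aged flies (5.14-fold lower), and MtnA, the main metallothionein, had 584 (young) and 514 (aged).

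Genes of the eggshell, made by follicle cells of the ovary, were lower almost without exception. Of 24 chorion and vitelline membrane genes 23 were at least 2-fold lower and none higher, with a median -2.99 from that of all loci. After scaling to the summed FPKM 18 were lower and none higher. Cp18, a late chorion protein, had an FPKM of 3190.1 (young) and 179 (aged) on water and 758 (young) and 123.3 (aged) on paraquat. Vm34Ca, an earlier vitelline membrane protein, had 2780.5 (young) and 199.6 (aged) on water and 314 (young) and 121 (aged) on paraquat. Both genes were highest in H2O-Young. Cp15 had 2503 (young) and 945 (aged) on water and 935 (young) and 1521 (aged) on paraquat, so that its age difference had the opposite sign in paraquat. The yolk protein genes, expressed in fat body and follicle cells, were lower, with Yp2 (chromosome X, 10050951 to 10052636, dm6) at 14515 in young and 684 in aged flies (21.2-fold lower) and Yp1 at 6020.3 (young) and 1131 (aged), 5.32-fold lower. yl, the yolk receptor of the oocyte, had 1666 (young) and 1059 (aged) on water and 223 (young) and 1161 (aged) on paraquat, within 2-fold in water and 2.38 on the log2 scale in paraquat.

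Genes of the germline, cell division and small RNA pathways were mostly within 2-fold, and nearly all of those called were higher. Of 30 germline and oocyte genes 10 were higher and none lower. bam, which starts germ cell differentiation, had an FPKM of 1.36 in young and 5.71 in aged flies (4.19-fold higher), and zpg, the gap junction protein of germ cells, had 22.6 (young) and 80.1 (aged), 3.54-fold higher. osk, the organizer of germ plasm, had 207 in young and 232 in aged flies, and bru1 242 (young) and 293 (aged), both within 2-fold. Of 45 mitotic genes 15 were higher (33.3%) and none lower. CycB, a mitotic cyclin, had 249 in young and 654 in aged flies (2.63-fold higher), aurA, the Aurora kinase of spindle poles, had 13.02 (young) and 38.8 (aged), 2.98-fold higher, and pim, the fly securin, had 12.7 in young and 46.1 in aged flies (3.64-fold higher). twe, the Cdc25 phosphatase of meiosis, had 2.79 (young) and 11.1 (aged), 3.99-fold higher. Of 39 DNA replication genes 9 were higher and 1 lower. Mcm10 had 2.76 in young and 13.8 in aged flies (5.01-fold higher), while PCNA, the sliding clamp, had 291 (young) and 392 (aged). Of 24 small RNA genes 9 were higher and none lower. piwi had 5.50 in young and 17.8 in aged flies (3.24-fold higher), zuc, the nuclease that cuts piRNA precursors, 2.999 (young) and 11.5 (aged), 3.85-fold higher, and Dcr-2, the Dicer of the siRNA pathway, 1.49 in young and 6.21 in aged flies (4.16-fold higher). Germline markers, which include several of these genes, were at least 2-fold higher in 6 of 15 cases and lower in none, as given above. Their part in the counts was not tested.

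Dosage compensation genes had the highest median of all lists with at least 5 measured genes, 1.37 above that of all loci, with 6 of 8 higher and 1 lower. The complex raises transcription of the single male X and is held back in females by Sxl, which blocks msl-2. lncRNA:roX1 (chromosome X, 3857230 to 3862697, dm6), an RNA of the complex, had an FPKM of 1.87 (young) and 25.5 (aged) on water and 2.33 (young) and 24.6 (aged) on paraquat, 13.6-fold higher in water. msl-2, the member that Sxl holds back, had 1.42 (young) and 32.7 (aged) on water and 4.63 (young) and 17.97 (aged) on paraquat, 23.1-fold higher in water, in a locus it shares with a microRNA gene. In both, the aged groups lay above the young groups. Clamp, which recruits the complex to the X, had 5.11 (young) and 14.1 (aged), 2.75-fold higher, msl-3 had 8.73 in young and 21.8 in aged flies (2.49-fold higher) and mof, the acetyltransferase, had 3.92 (young) and 8.77 (aged), 2.24-fold higher. Sxl had 15.5 in young and 6.74 in aged flies (2.30-fold lower), and lncRNA:roX2 was below an FPKM of 1 in both water groups. Across the X as a whole the median log2 ratio was -0.12, and those of the large autosome arms ran from -0.14 on 3R to -0.08 on 3L. Markers of male tissue summed to 5.70 (young) and 3.16 (aged). Nearly all of this came from Mst87F, at 5.63 in young and 3.11 in aged flies, the 1 marker above an FPKM of 1. The male marker kl-5 carried the mark of too many fragments, so that its listed 0 is no measurement. Whether RNA of male tissue was present was not tested.

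Digestive enzymes of the midgut were mostly lower. All 15 measured Jonah proteases and all 15 trypsins and related serine proteases were at least 2-fold lower. After scaling to the summed FPKM 10 of the Jonah proteases and 7 of the trypsins were lower and none higher. Jon65Aiv, the most abundant Jonah gene, had an FPKM of 2309.8 (young) and 658 (aged) on water and 1210.2 (young) and 555 (aged) on paraquat. alphaTry had 4883 (young) and 1151 (aged) on water and 3066 (young) and 1797 (aged) on paraquat. Of 13 maltases and amylases 10 were lower, with Mal-A6 at 489 (young) and 101 (aged), 4.85-fold lower. After scaling to the summed FPKM 1 of the 13 was lower and none higher. The copies Amy-p, at 200.2 in young and 61.2 in aged flies, and Amy-d, at 124 (young) and 38.05 (aged), are nearly alike in sequence and can share reads, as can the trypsins and LysB, LysD and LysE. LysP, a salivary gland lysozyme, had 492 in young and 113 in aged flies (4.36-fold lower). Midgut markers, which include several of these genes, were lower as given above, and their part in the counts was not tested.

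Of 17 lysozymes and peptidoglycan recognition proteins 14 were lower and none higher, and after scaling to the summed FPKM 8 were lower and none higher. PGRP-LC, the receptor of the Imd pathway, had an FPKM of 418 (young) and 65.1 (aged), 6.42-fold lower, and PGRP-SB1 73.1 in young and 18.3 in aged flies (3.99-fold lower). PGRP-LE, an intracellular receptor, had 91.3 (young) and 65.0 (aged) and PGRP-SD, which binds for the Toll and Imd pathways, 42.9 in young and 32.6 in aged flies, both within 2-fold. The effector peptides were less uniform, with 13 of 29 Bomanins and antimicrobial peptides lower and 4 higher. BomS6 had 1203 (young) and 131 (aged) on water and 282 (young) and 119 (aged) on paraquat. Drs, the antifungal drosomycin, had 1063 (young) and 450.3 (aged) on water and 476 (young) and 571 (aged) on paraquat. H2O-Young was the highest of the 4 groups in both. DptA, a diptericin, had 58.1 (young) and 107 (aged) on water and 25.5 (young) and 99.7 (aged) on paraquat, with both aged groups above both young groups. In paraquat 14 of 29 were higher and 2 lower with age. Both measured prophenoloxidase genes, which serve melanization, were lower. PPO2 had 15.03 (young) and 1.91 (aged), 7.88-fold lower, and PPO1 3.35 in young and 0.138 in aged flies. Among chitinase family genes, Cht8 had 65.9 (young) and 10.9 (aged), 6.06-fold lower, but Cht6 had 1.51 in young and 9.80 in aged flies (6.51-fold higher).

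Cuticle genes were expressed at a low level and mostly lower. Of 92 Cpr cuticular protein genes with a locus of their own, 51 were below an FPKM of 1 in both groups, 39 had a ratio, and 30 of these were lower and 5 higher. Cpr65Au had an FPKM of 73.1 (young) and 14.2 (aged), 5.16-fold lower and Cpr49Ab 119 in young and 28.1 in aged flies (4.25-fold lower). Cpr64Ad had 5.99 (young) and 31.6 (aged), 5.27-fold higher and Cpr66D 2.79 in young and 15.6 in aged flies (5.60-fold higher). The extreme ratio of Cpr65Eb, with 1.19 (young) and 0.000154 (aged), rests on a level near 0 in H2O-Aged. Of 18 Tweedle, Osiris and related genes 14 were lower, and Vajk3 was the 1 on the other side, at 4.17 in young and 20.9 in aged flies. Odorant-binding proteins, small carriers of hydrophobic ligands, were lower in 15 of 22 cases and higher in none. Obp99a had 289.7 (young) and 20.6 (aged), 14.1-fold lower, and Obp99c, the most abundant, 555 in young and 176 in aged flies (3.15-fold lower). Obp56d had 48.9 (young) and 54.3 (aged).

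Genes of lysosomal hydrolases and sterol carriers were lower in 13 of 25 cases and higher in none, but after scaling to the summed FPKM 2 were lower and 6 higher. cathD, the aspartic protease cathepsin D, had an FPKM of 2734 in young and 918 in aged flies (2.98-fold lower), and Hexo2, a beta-hexosaminidase, 295 (young) and 86.1 (aged), 3.42-fold lower. CtsK1 had 339 in young and 412 in aged flies and Lamp1, a protein of the lysosomal membrane, 125 (young) and 131 (aged), both within 2-fold. The vacuolar proton ATPase, which acidifies the same compartment, was within 2-fold in 19 of 22 genes, with Vha13 at 1126 in young and 929.5 in aged flies. Several Npc2 sterol carrier genes were lower, with Npc2b at 76.6 (young) and 21.1 (aged) and Npc2d at 6.08 in young and 0.567 in aged flies, whereas Npc2a had 347 (young) and 322 (aged).

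Genes of neurons and eyes were mostly low in level and often lower. Of 40 neuropeptide and receptor genes 19 were lower and none higher, most of them under an FPKM of 20. After scaling to the summed FPKM 4 were lower and 6 higher. Nplp2, which is also abundant in fat body, had an FPKM of 182 in young and 75.5 in aged flies (2.41-fold lower), Akh, the adipokinetic hormone, 18.1 (young) and 4.04 (aged), 4.49-fold lower, and CrzR, the corazonin receptor, 22.9 in young and 6.28 in aged flies (3.64-fold lower). Of 25 phototransduction genes 12 were lower and 1 higher, against none and 5 after that scaling. Rh6, a rhodopsin, had 76.2 (young) and 27.6 (aged) on water and 62.7 (young) and 32.6 (aged) on paraquat. ninaE, the main rhodopsin, had 238 (young) and 241 (aged) on water and 634 (young) and 117 (aged) on paraquat, and trpl, a light-gated channel, 13.2 (young) and 8.71 (aged) on water and 31.6 (young) and 5.32 (aged) on paraquat. At these last genes PQ-Young was the highest group, and the age difference in water was 0.02 and -0.60 on the log2 scale against -2.43 and -2.57 in paraquat. The photoreceptor markers, which include several of these genes and so are no separate observation, were lower in 6 of 13 cases. Of the neuron markers 5 of 9 were lower. The part of these tissues in the counts was not tested.

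Among signaling pathways, members of the stress kinase cascades were higher in 6 of 21 cases and lower in none. p38a had an FPKM of 10.1 (young) and 22.5 (aged), 2.22-fold higher, p38b 17.7 in young and 38.1 in aged flies (2.15-fold higher), and lic, the kinase that activates them, 17.3 (young) and 37.2 (aged), 2.15-fold higher. kay, the fly Fos, had 7.62 in young and 20.1 in aged flies (2.64-fold higher) and Gadd45, which acts upstream of the kinases, 8.50 (young) and 25.6 (aged), 3.02-fold higher. bsk, the Jun kinase, had 9.46 in young and 7.997 in aged flies, and its phosphatase puc 13.9 (young) and 21.97 (aged), both within 2-fold. Of 18 Notch genes 7 were higher and 2 lower, with Nct, a subunit of the gamma-secretase that cleaves the receptor, at 4.10 in young and 10.8 in aged flies (2.64-fold higher) and dx, a ubiquitin ligase of the pathway, at 5.31 (young) and 15.3 (aged), 2.88-fold higher, but the target E(spl)mgamma-HLH at 2.72 in young and 0.934 in aged flies (2.91-fold lower). Of 25 Hedgehog and BMP genes 6 were higher, among them the receptors tkv, at 4.48 (young) and 12.04 (aged), and put, at 3.46 in young and 11.4 in aged flies, and the effector Mad, at 3.30 (young) and 10.9 (aged). The ligand hh was lower, at 3.01 in young and 1.202 in aged flies, and gbb, a BMP ligand, had 21.1 (young) and 13.1 (aged). hpo, the Hippo kinase, had 3.66 in young and 9.48 in aged flies (2.59-fold higher), and Diap1, a target of that pathway, 135 (young) and 116 (aged).

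Chromatin regulators of the Polycomb, Trithorax and remodeling groups were within 2-fold in 41 of 51 cases, with 8 higher and 2 lower. brm, an ATPase of the SWI/SNF remodelers, had an FPKM of 8.94 in young and 25.7 in aged flies (2.87-fold higher), dom, the ATPase that exchanges histone variants, 13.5 (young) and 48.1 (aged), 3.57-fold higher, and HDAC1 22.8 in young and 62.9 in aged flies (2.76-fold higher). kis, a CHD remodeler, had 108 (young) and 45.7 (aged), 2.37-fold lower, and Chd1 125 in young and 73.8 in aged flies.

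Tetraspanins and innexins, proteins of membrane domains and gap junctions, divided to both sides as deposited, with 12 of 33 higher (36.4%) and 10 lower (30.3%). After scaling to the summed FPKM 21 were higher and none lower. The Tsp42E genes lie in 1 cluster. Tsp42Eo had an FPKM of 0.540 (young) and 7.82 (aged), 14.5-fold higher and Tsp42El 14.1 in young and 43.8 in aged flies (3.10-fold higher), whereas Tsp42Ec had 15.4 (young) and 5.42 (aged), 2.84-fold lower. Inx7 had 4.09 in young and 21.5 in aged flies (5.25-fold higher) and Inx3 76.1 (young) and 25.5 (aged), 2.98-fold lower. In the cytoskeleton, the actin gene Act57B had 62.6 in young and 325 in aged flies (5.19-fold higher), in a locus it shares with a small nucleolar RNA. The tubulin gene betaTub97EF had 336 (young) and 60.8 (aged), 5.53-fold lower, and alphaTub84B, the most abundant tubulin, 1535 in young and 1618 in aged flies. Of 31 sarcomere genes 22 were within 2-fold, and sls, the fly titin, carried the mark of too many fragments and gives no ratio.

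Transcript length went with the age difference. Of the measured loci 9086 had a length in the annotation. These loci were divided by length into 10 classes of equal size. In the class of the shortest transcripts (72 to 677 bases) the median log2 ratio was -1.13 and 54.2% of 909 loci were at least 2-fold lower. In the class of 2778 to 3608 bases the median was 0.27 and 9.90% were lower. The relation held at like abundance. At a mean FPKM of 10 to 100 over the 4 groups, 39.7% of 634 loci under 1000 bases were lower. Of 2040 loci of 2000 bases or more 6.86% were. The same shares were 41.5% and 15.0% at a mean of 1 to 10. At a mean of 100 or more they were 56.5% and 28.3%, and the long transcripts there had a median log2 ratio of -0.51. The relation with length was smaller between PQ-Young and PQ-Aged, with medians of -0.35 in the shortest class and 0.07 at 2778 to 3608 bases. Abundance went with it too: of 10 classes by the FPKM in H2O-Young, in the highest 60% of 951 loci were lower and 1.05% higher. That class is chosen on a value that is also the divisor of the ratio, which by itself moves its ratios down. Many genes of the lists above that were lower are short, such as the Jonah proteases with a median of 903 bases, and mitotic genes, with a median of 2699 bases, are longer. Hydrocarbon genes kept 20 of 27 lower, and eggshell genes 12 of 13, among transcripts of at least 1000 bases, where 1304 of 7142 loci were lower. How far RNA quality or library steps enter the relation with length was not tested, since no value per library was at hand.

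**Figure D4:**
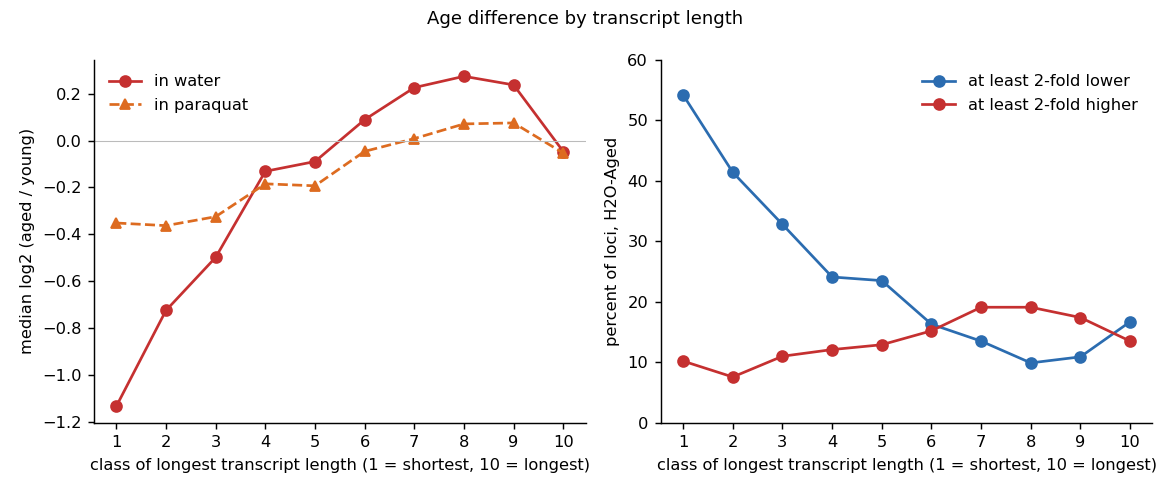
Left, median log2 ratio of aged to young in water (circles) and in paraquat (triangles) for 10 classes of loci by the length of their longest annotated transcript; right, percent of loci at least 2-fold lower (blue) or higher (red) in H2O-Aged in the same classes. The share of lower loci runs from 54.2% in the shortest class to 9.90% in class 8.

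The age difference was also measured in flies on paraquat, in libraries that the comparison in water does not share. Between PQ-Young and PQ-Aged 676 of 9316 loci were at least 2-fold higher (7.26%) and 1307 lower (14.0%). Among 9440 loci with both ratios, 396 were higher in both, which is 30.5% of those higher in water and 61.1% of those higher in paraquat. Another 989 were lower in both, 43.6% and 76.2% of the respective lists. Opposite calls were few: 8 loci were higher in water and lower in paraquat, and 66 the reverse. The log2 ratios of the 2 comparisons had Pearson's r at 0.66 and Spearman's rho at 0.69 over these loci, given as a description, since loci are not independent and share their transcript lengths. The spread of log2 ratios (SD over loci) was 1.28 in water and 0.91 in paraquat. For eggshell genes 17 of 24 were lower in paraquat, and for hydrocarbon genes 18. Of 45 mitotic genes 3 were higher in paraquat, and of 24 small RNA genes none.

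**Figure D5:**
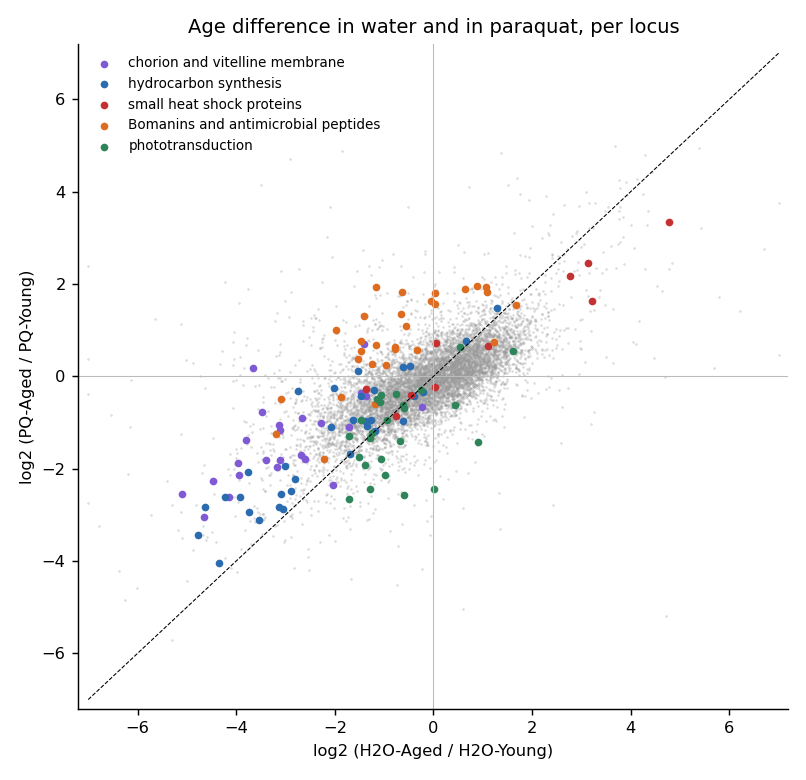
Log2 ratio of aged to young in water (horizontal axis) and in paraquat (vertical axis), one grey point per locus, with the genes of 5 lists in color; the dashed line marks equal ratios, and values past 7 on either side are drawn at 7. Most eggshell and hydrocarbon genes lie at the lower left, and most antimicrobial peptide genes lie above the dashed line.

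Loci without a ratio were counted apart. Of the members 174 were listed at 0 in one group, 93 of them in young and 81 in aged flies, and 118 of these carried no protein-coding gene. A further 86 loci carried the mark of too many fragments, and 34 of those had a value in H2O-Young and 0 in H2O-Aged. Messenger RNA was selected by its poly(A) tail, so that many noncoding RNAs are caught only in part. Of 223 long noncoding RNAs 39.0% were lower and 20.6% higher, and of 44 small nucleolar RNAs 54.5% and 20.5%, beside 23.4% and 13.5% of 9038 protein-coding loci. Of 8 small nuclear RNAs 25.0% were lower. The classes were not matched for transcript length, and of all loci with transcripts of 72 to 677 bases 54.2% were lower and 10.2% higher. These differences were not tested. Loci that hold several genes with 1 shared value numbered 532 of those with a ratio.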

How the data were processed

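RNA on FLAG-tagged ribosomes was pulled down from 3 replicates in each of 4 groups (12 libraries), and poly(A) RNA was made into directional libraries and read as 50 bp single ends. The authors aligned reads with TopHat2 to dm6, assembled transcripts with Cufflinks and ran Cuffdiff. The deposited table holds 1 FPKM per group and locus, pooled over 3 libraries, for 16191 loci and 6 pairs of groups. It also holds the authors' fold changes, test statistics, p- and q-values and calls, none of which was used. Depth per library is unknown, so that no interval was computed.

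The ratio of group FPKM was computed with python 3.11.15, pandas 2.3.3 and numpy 2.4.6, without a pseudocount, for loci of FPKM 1 or more in one group and above 0 in both. Loci marked as holding too many fragments were left out. Gene names came from RefSeq identifiers, with 130 loci left unnamed. Calls were counted at 2-fold, and no test between samples was possible. Loci named were, by a fixed rule, the 15 highest and 15 lowest ratios at FPKM 10 or more, and in each list up to 5 members with the largest ratios and 3 with the highest FPKM. Other genes were named for their known role after their values were seen, and the 3 gene stretches and the alternative of transcripts of at least 1000 bases were chosen then too. The members and gene lists were chosen with earlier results of these data known. From the lists, 4 entries that did not belong by name (GluRS-m, Dic1, cad and PPAT-DPCK) were removed after values were seen.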

Additional observations from a re-analysis of the deposited data

How the results depend on the processing

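No paired analysis was possible because the table pools the 3 libraries of each group, and for the same reason leaving out each replicate was not run. Scaling to the summed FPKM gave 4783 loci higher and 619 lower (11.5% of calls lower) and 2439 called the same way with age in water and in paraquat, against 1385 as deposited. Scaling to Gapdh1 gave 2292 higher, 1531 lower (40.0% of calls) and 2191 called the same way. The share of lower calls was 55.6% after centring on the median, 53.3% after quantile normalization, 62.4% with a mean FPKM over the 4 groups of at least 1 and 62.3% with an FPKM of at least 5 in one group. Among transcripts of at least 1000 bases 1304 loci were lower, 54.9% of calls, and 858 were called the same way in paraquat. RpL13A turned to the higher side, with a log2 ratio of 0.0806 after scaling to the summed FPKM and 0.64 after quantile normalization, and phtm did so after scaling to the summed FPKM (0.0703). Of 169 genes named at least 2-fold apart, 44 came within 2-fold on the same side after scaling to the summed FPKM, beside RpL13A and phtm. After quantile normalization 17 did so beside RpL13A, and after scaling to Gapdh1 16 did. The other alternatives moved 5 or fewer inside that line. Of the genes named within 2-fold, 26 became at least 2-fold apart under the summed FPKM, 8 under Gapdh1 and 13 under quantile normalization. The lists' medians relative to all loci were 1 or more from 0 for 12 of 72 lists, and fell short of that only for the pentose phosphate list after quantile normalization (-0.96) and for thioester proteins and nimrods with a pseudocount of 1 (-0.72), with 3 of the 12 (Jonah proteases, trypsins and odorant-binding proteins) not evaluated among transcripts of at least 1000 bases, where fewer than 5 of their genes were left. Beyond those, the limits are the pooled values, the unknown depth, an H2O-Young library that could not be left out, and RNA of other tissues in the pull-down.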

Other observations

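Gene groups not described above had smaller or mixed differences. In the secretory pathway 13 of 43 genes of coats, tethers and the signal recognition particle were lower and 4 higher. Srp19, a protein of the signal recognition particle that guides new secretory proteins to the endoplasmic reticulum, had an FPKM of 924 (young) and 143 (aged), 6.47-fold lower, and zetaCOP, a subunit of the coat of retrograde vesicles, 578 in young and 207 in aged flies (2.79-fold lower). AP-2alpha, of the endocytic adaptor, had 3.40 (young) and 12.2 (aged), 3.58-fold higher. The members that were lower had high levels in H2O-Young and those that were higher had low ones. That level is also the divisor of the ratio, which by itself goes this way, and all loci had the same relation, as given above for abundance. Of 37 transporters 10 were lower and 6 higher. Orct2, an organic cation transporter, had 61.3 in young and 13.9 in aged flies (4.42-fold lower), and Eglp4, an aquaglyceroporin, 109 (young) and 30.3 (aged), 3.60-fold lower, whereas path, an amino acid transporter, had 10.9 in young and 32.4 in aged flies (2.97-fold higher). Of 36 junction genes 7 were higher and 4 lower, among the former crok, at 6.33 (young) and 16.4 (aged).

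In JAK-STAT signaling the cytokine gene upd3, which is induced by damage and stress in several fly tissues, had an FPKM of 0.738 (young) and 6.65 (aged) on water and 1.59 (young) and 4.25 (aged) on paraquat, the largest ratio of the 12 measured genes of the pathway. Its target Socs36E, a feedback inhibitor, had 6.78 in young and 18.8 in aged flies (2.78-fold higher), and the receptor dome 42.5 (young) and 45.8 (aged), within 2-fold. In basement membrane, both collagen IV genes were lower, with vkg at 17.0 in young and 6.89 in aged flies and Col4a1 at 11.01 (young) and 4.80 (aged), while the peroxidase gene Pxn, whose enzyme links collagen, had 6.08 in young and 15.6 in aged flies (2.56-fold higher). Of 32 aminoacyl-tRNA synthetases 28 and of 38 splicing genes 34 were within 2-fold. Of the Turandot stress genes 4 had a ratio. TotM had 52.6 (young) and 51.8 (aged) on water and 14.3 (young) and 47.9 (aged) on paraquat, and TotC 52.2 (young) and 22.2 (aged) on water and 9.01 (young) and 18.1 (aged) on paraquat. TotA had 13.6 (young) and 19.1 (aged) on water and 5.34 (young) and 15.6 (aged) on paraquat, and TotX 3.85 (young) and 1.55 (aged) on water and 1.14 (young) and 1.93 (aged) on paraquat. PQ-Aged was above PQ-Young in all 4, and H2O-Aged was above H2O-Young in TotA only. The difference between the treatments was not tested.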
